A study of Rattus norvegicus with 9 samples.

Results

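The genes that make, load, clear and act on GABA and glycine were followed through RNA sequencing of rat lumbar spinal cord. They are the 9 rows of the expression table whose gene name is Gad1, Gad2, Slc32a1, Slc6a11, Slc6a5, Slc6a9, Slc12a5, Slc12a2 or Gphn, out of 34890 loci listed, of which 32850 carry a gene name. All 9 were found once each. Tissue came from the ipsilateral side of segments L3-L6 of male Sprague Dawley rats labelled as wild type (WT), in 3 groups of 3 samples labelled as biological replicates. JA rats had a sham operation and received normal saline by mouth. SNI rats had a spared nerve injury, in which branches of the sciatic nerve are ligated and cut and the rest is left, and also received saline. PLM rats had the same injury and received the middle dose of a combination of 2 plant compounds, paeoniflorin at 20.65 mg/mL and liquiritin, which the labels of replicates 1, 2 and 3 give as 3.98, 3.99 and 3.100 mg/mL and the study's methods give as 3.98 mg/mL. Gavage lasted 21 days from the operation in the study's methods. Uninjured rats given the drugs were not analysed here, so the PLM group shows drug and injury together.

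GABA and glycine are the fast inhibitory transmitters of the spinal cord. Inhibitory neurons make GABA from glutamate, load GABA and glycine into vesicles through a shared transporter, and release them onto chloride channels held at the synapse by a scaffold protein. Neurons and astrocytes then take the transmitters up again, and the direction of chloride flow depends on how much chloride the cell pumps in and out. Loss of this inhibition in the dorsal horn is one of the changes studied in neuropathic pain.

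Values are TPM, a measure of transcript abundance that corrects for the length of each gene and makes all samples sum to one total, so levels of different genes can be set side by side. TPM keeps no read depth, so the counting error behind a value is unknown. Fold changes are differences of log2(TPM + 1) from limma, fitted to every locus that averaged 1 TPM or more over the 6 samples of a comparison, and a gene was called at a Benjamini-Hochberg adjusted p under 0.05 over all of them. The 13 protein genes of the mitochondrial genome took 25.3% to 32.8% of the TPM in JA, 23.7% to 26.1% in SNI and 31.3% to 32.8% in PLM. Since every sample sums to the same total, the other genes together lie lower where this share is higher. The median log2 fold change over all genes was -0.21 in PLM versus SNI and 0.12 in SNI versus JA, and it was 0.04 and -0.01 after each sample was centred on its median. With TPM rescaled without the 13 mitochondrial genes it was -0.08 and 0.04, and 67.24% of genes were still lower in PLM versus SNI. Counts of genes called in each comparison are therefore given as deposited and median-centred. Fold changes are as deposited unless they are called centred. Centring moves every fold change of a comparison by the same amount as the median over all genes. Some samples also carried more Schwann cell RNA, the glia of nerve roots: the summed TPM of 7 markers was 8000 in JA replicate 3, 4537 in SNI replicate 2 and 3348 in PLM replicate 3, against 130 to 1612 in the other samples. In bulk tissue, fewer cells of a type and less RNA per cell cannot be told apart.

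Averaged over JA, the order of levels ran from Slc6a9 at 173 ± 31.7 TPM (SD, n = 3) through Slc12a5, Slc12a2, Slc32a1, Slc6a11, Gad1, Slc6a5 and Gphn to Gad2 at 17.8 ± 1.22 TPM. The order of the means was the same in SNI. In PLM, Slc12a5 stood first at 143 ± 3.31 TPM and Slc6a9 second at 134 ± 4.24 TPM, and Slc6a11 moved from rank 5 to rank 8 of 9. Not all neighbours in these orders were apart. In JA only Slc12a5 and Slc12a2, Gad1 and Slc6a5, and Gphn and Gad2 had ranges over the 3 samples that did not overlap with the next gene, and in SNI the pairs apart were Slc12a5 and Slc12a2, Slc6a11 and Gad1, and Gphn and Gad2. In PLM only Slc12a2 and Slc32a1, Gphn and Slc6a11, and Slc6a11 and Gad2 overlapped.

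**Figure D1:**
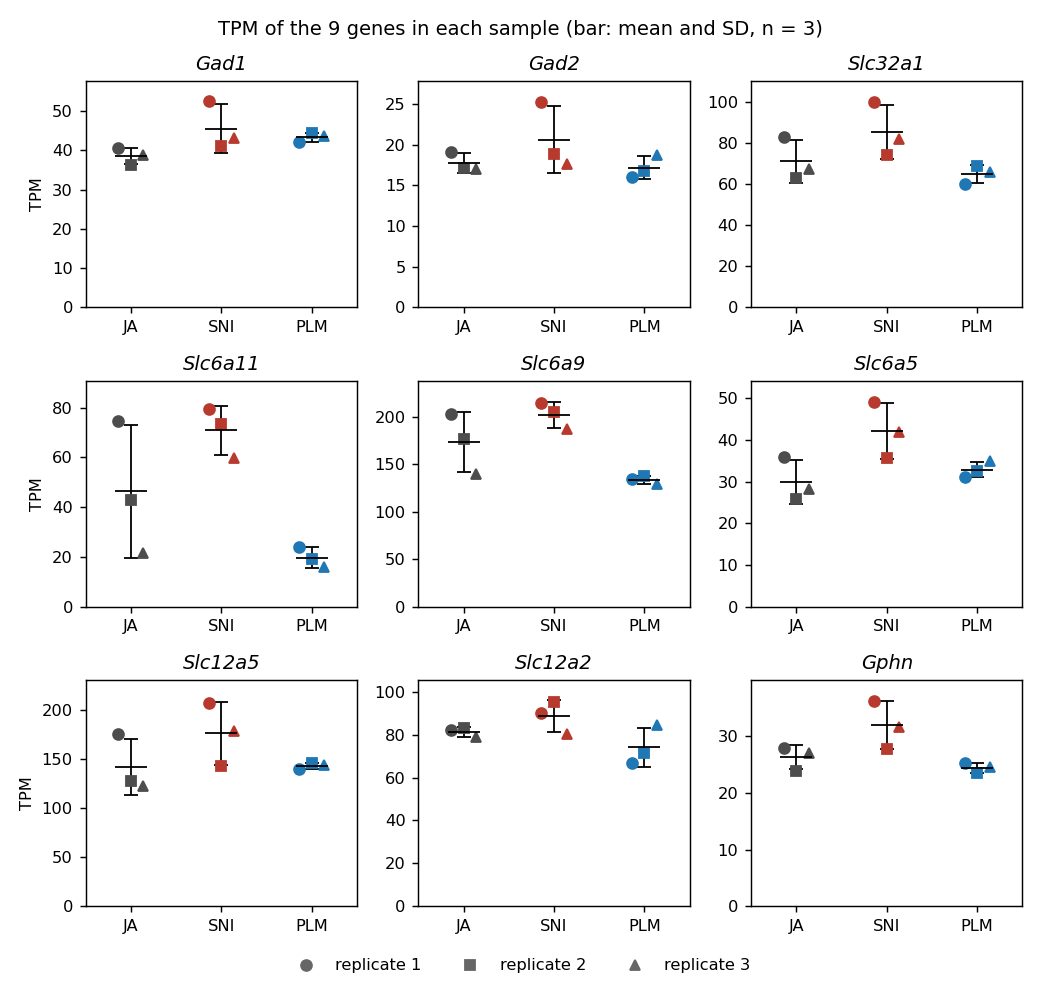
TPM (y axis, linear from 0) of each of the 9 genes in JA, SNI and PLM, with 1 symbol per sample (circle, square and triangle for replicates 1, 2 and 3) and bars for the mean and SD of 3 samples. The 3 PLM samples of Slc6a11 (15.8 to 24.2 TPM) and Slc6a9 (129 to 138 TPM) lie under the 3 SNI samples, while the JA samples of Slc6a11 spread from 21.7 to 74.7 TPM.

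The first comparison asks what the drug treatment changed in injured rats. In PLM versus SNI, 2 of the 9 genes were called lower and none higher as deposited: Slc6a11, an astrocyte GABA transporter, and Slc6a9, the glycine transporter found mainly on glia. Both take transmitter back out of the extracellular space. The share called lower among all 15474 genes tested was 13.6%, and 2 of 9 is near that background. After median-centring Slc6a11 alone was called, where 0.685% of all genes were called lower. At the threshold used in the study (unadjusted p under 0.05 and absolute log2 fold change above 1) Slc6a11 was again the only one of the 9, against 1.65% of all genes in either direction. Over the 9 genes the fold changes had a median of -0.34, beside -0.21 over all genes, and -0.09 against 0.04 when centred.

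Slc6a11 (ENSRNOG00000005697) measured 79.5, 73.2 and 59.9 TPM in SNI replicates 1 to 3. In PLM replicates 1 to 3 it measured 24.2, 19.3 and 15.8 TPM. Every PLM sample thus lay far under every SNI sample, with a log2 fold change of -1.80 (SE 0.17, 95% CI -2.21 to -1.39, limma adjusted p = 0.00541). Median-centring left it at -1.55 (SE 0.19, 95% CI -2.01 to -1.10, limma adjusted p = 0.0317). The same call was lost under a median-centred fit with the replicate number as a block (limma adjusted p = 0.0974) and in 5 of the 6 median-centred fits that left out a sample (limma adjusted p = 0.0670 to 0.139, the exception being the fit without PLM replicate 1). The fold change of Slc6a11 lay between -1.74 and -1.38 in those 6 fits.

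Slc6a9 (ENSRNOG00000019484) measured 214, 206 and 187 TPM in the SNI samples and 135, 138 and 129 TPM in the PLM samples. The groups did not overlap, and the PLM samples lay close together. On the log2 scale Slc6a9 fell by 0.59 (SE 0.07, 95% CI -0.75 to -0.43, limma adjusted p = 0.00851). Centred, it was -0.34 (95% CI -0.51 to -0.17), which did not pass (limma adjusted p = 0.102). With the replicate number as a block the adjusted p for Slc6a9 was 0.0544 in limma.

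Slc6a5, the neuronal glycine transporter that refills glycinergic terminals, measured 48.9, 35.6 and 41.9 TPM in SNI and 31.2, 32.5 and 34.9 TPM in PLM. Its PLM samples lay just under its lowest SNI sample. The log2 fold change of Slc6a5 was -0.34 (95% CI -0.63 to -0.05), with a limma adjusted p of 0.0961, and it was -0.09 when centred (95% CI -0.35 to 0.17).

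None of the remaining 6 genes passed the test in PLM versus SNI. The glutamate decarboxylases make GABA. Gad1 measured 52.6, 41.0 and 43.1 TPM in SNI and 42.1, 44.3 and 43.5 TPM in PLM, so that SNI replicate 1 alone stood above the PLM samples. Its log2 fold change was -0.06 (95% CI -0.30 to 0.18) as deposited and 0.18 (95% CI -0.04 to 0.40) when centred, so the sign of Gad1 turned with the scaling. Gad2 was at 25.3, 18.8 and 17.7 TPM in SNI and 16.0, 16.7 and 18.8 TPM in PLM, again with overlap and with SNI replicate 1 the highest. For Gad2 the log2 fold change was -0.24 (95% CI -0.58 to 0.11) as deposited and 0.01 (95% CI -0.29 to 0.31) when centred. Without SNI replicate 1 the deposited values were 0.04 for Gad1 and -0.09 for Gad2.

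Slc32a1, the vesicle transporter shared by GABA and glycine, was at 99.9, 73.9 and 82.0 TPM in SNI and 59.9, 68.5 and 65.8 TPM in PLM. The groups did not overlap. Its log2 fold change of -0.38 (95% CI -0.67 to -0.10) did not pass after adjustment (limma adjusted p = 0.0735), and the centred value for Slc32a1 was -0.14 (95% CI -0.39 to 0.12).

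Slc12a5 exports chloride from mature neurons. It was at 207, 143 and 178 TPM in SNI and 139, 146 and 144 TPM in PLM, with SNI replicate 2 inside the PLM range. Its log2 fold change was -0.28 (95% CI -0.60 to 0.03; -0.16 without SNI replicate 1 and -0.42 without SNI replicate 2) and -0.03 when centred (95% CI -0.34 to 0.28). Slc12a2 imports chloride and is expressed by glia as well as neurons. It was at 90.0, 95.1 and 80.3 TPM in SNI and 67.0, 71.2 and 84.4 TPM in PLM, where PLM replicate 3 lay above SNI replicate 3. Its log2 fold change was -0.25 (95% CI -0.51 to 0.00) and -0.01 when centred (95% CI -0.22 to 0.21). Neither cotransporter passed the test (limma adjusted p = 0.169 for Slc12a5 and 0.137 for Slc12a2).

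Gphn encodes gephyrin, the scaffold under glycine and GABA-A receptors. It was at 36.3, 27.8 and 31.6 TPM in SNI and 25.2, 23.5 and 24.5 TPM in PLM, without overlap. The log2 fold change of Gphn was -0.36 (95% CI -0.61 to -0.12, limma adjusted p = 0.0594) as deposited and -0.12 (95% CI -0.36 to 0.13) when centred.

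Counted by overlap, 5 of the 9 genes (Slc32a1, Slc6a11, Slc6a5, Slc6a9 and Gphn) had all PLM samples under all SNI samples, beside 41.9% of all genes tested. After centring these were 2 of 9 (Slc6a11 and Slc6a9), beside 9.73% of all genes. As deposited all 9 fold changes were negative, as were 85.05% of those of all genes, and 7 of the 9 remained negative when centred, beside 42.41% of all genes. SNI replicate 2, which held the most Schwann cell marker RNA of its group, bears on the count: without it 5 of the 9 genes were called lower, beside 9.46% of all genes in the same fit. The further ones were Slc6a5 (limma adjusted p = 0.0473), Slc12a5 (0.0412) and Gphn (0.0408), and the part of the Schwann cell RNA in this was not tested.

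**Figure D2:**
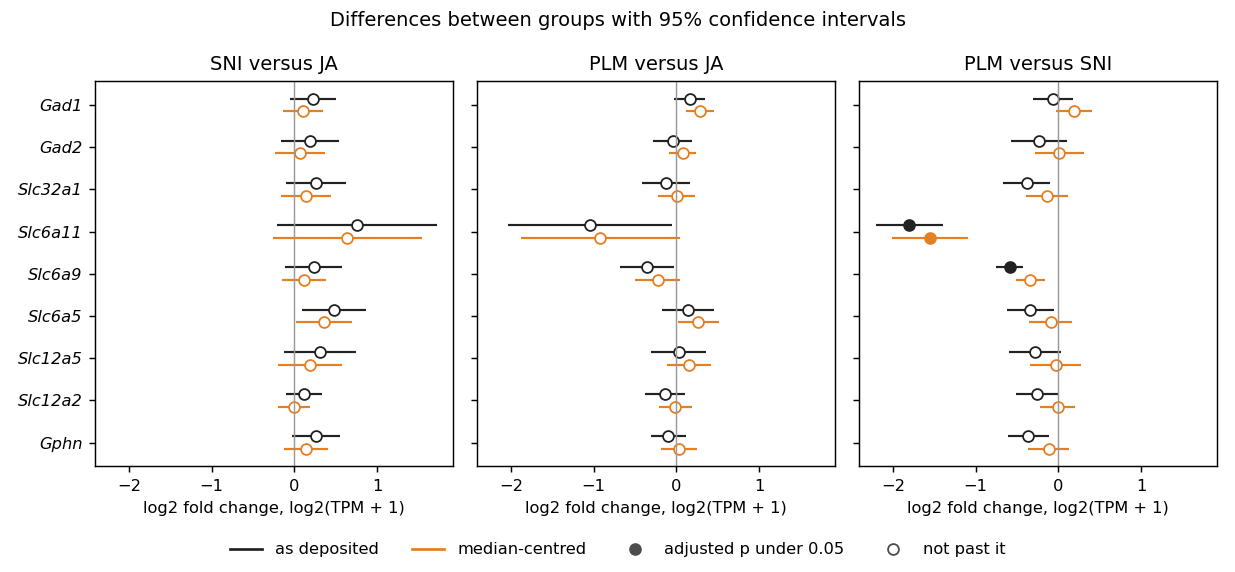
Log2 fold changes (x axis, log2(TPM + 1)) of the 9 genes in SNI versus JA, PLM versus JA and PLM versus SNI, with 95% confidence intervals from limma, as deposited in black and median-centred in orange, filled where the adjusted p was under 0.05. Filled points appear only in PLM versus SNI, for Slc6a11 on both scales (-1.80 and -1.55) and for Slc6a9 as deposited (-0.59), while Gad1 lies at -0.06 as deposited and 0.18 when centred.

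The second comparison asks what the injury itself changed. In SNI versus JA none of the 9 genes was called by limma, as deposited or median-centred, nor was any of the 15557 genes tested (0% called on both scales). At an unadjusted p under 0.05 there was 1 of the 9, Slc6a5, on both scales, and 1104 of all genes (7.1%) as deposited and 751 (4.83%) centred. None of the 9 met the threshold used in the study, which 0.688% of all genes met. All 9 log2 fold changes were above 0 as deposited, as were 76.41% of those of all genes, with a median of 0.26 beside 0.12 over all genes. When centred, 8 were above 0, beside 48.58% of all genes, with a median of 0.14 beside -0.01, Slc12a2 being the exception at -0.0038.

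Slc6a5 measured 35.9, 25.8 and 28.3 TPM in JA, under the 48.9 and 41.9 TPM of SNI replicates 1 and 3 and overlapping with the 35.6 TPM of SNI replicate 2. The log2 fold change of Slc6a5 was 0.48 (SE 0.16, 95% CI 0.09 to 0.87, limma adjusted p = 0.614) and 0.36 when centred (95% CI 0.02 to 0.69, limma adjusted p = 0.889). Gad1 measured 40.6, 36.4 and 38.9 TPM in JA, all under the SNI samples. It was the 1 gene of the 9 without overlap, beside 13.8% of all genes, and after centring none of the 9 was apart, beside 10.9%. The log2 fold change of Gad1 was 0.23 (95% CI -0.05 to 0.50, limma adjusted p = 0.614), or 0.12 without SNI replicate 1. When centred, the value for Gad1 was 0.11.

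Slc6a11 varied widely within JA. It measured 74.7, 42.7 and 21.7 TPM in replicates 1 to 3, so that replicate 1 stood among the SNI samples and replicate 3 within the PLM range. The log2 fold change of Slc6a11 in SNI versus JA was 0.76 (SE 0.40, 95% CI -0.20 to 1.72, limma adjusted p = 0.614), 0.31 without JA replicate 3 and 1.18 without JA replicate 1. When centred it was 0.64. Slc6a9 followed the same order within JA, at 203, 177 and 140.1 TPM, with a log2 fold change of 0.24 (95% CI -0.11 to 0.58), which was 0.09 without JA replicate 3 and 0.36 without JA replicate 1. The centred value for Slc6a9 was 0.11.

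For the other 5 genes the JA and SNI samples overlapped, with log2 fold changes of 0.19 for Gad2 (95% CI -0.16 to 0.54; JA 17.0 to 19.2 TPM) and 0.26 for Slc32a1 (95% CI -0.10 to 0.62; JA 62.8 to 82.8 TPM). It was 0.31 for Slc12a5 (95% CI -0.13 to 0.75; JA 123 to 175 TPM) and 0.12 for Slc12a2 (95% CI -0.09 to 0.33; JA 78.8 to 82.9 TPM). For Gphn it was 0.27 (95% CI -0.02 to 0.56; JA 23.9 to 27.9 TPM). Each of these intervals includes 0. When centred, the values were 0.07 for Gad2, 0.14 for Slc32a1, 0.19 for Slc12a5, -0.0038 for Slc12a2 and 0.15 for Gphn. Leaving out 1 sample, the deposited values ranged from 0.04 to 0.29 for Gad2, 0.14 to 0.38 for Slc32a1, 0.19 to 0.47 for Slc12a5, 0.06 to 0.18 for Slc12a2 and 0.17 to 0.36 for Gphn. They were lowest without SNI replicate 1, except for Slc12a2, which was lowest without SNI replicate 2.

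The third comparison sets treated injured rats beside sham-operated ones. In PLM versus JA none of the 9 genes was called by limma on either scale, where 3 of 15349 genes (0.0195%) were called as deposited and 2 (0.0130%) when centred. At an unadjusted p under 0.05 there were 2 of the 9 as deposited (Slc6a11 and Slc6a9, both lower in PLM), beside 11.8% of all genes, and 2 when centred (Gad1 and Slc6a5, both higher), beside 9.98%. Slc6a11 alone met the threshold used in the study, beside 0.938% of all genes. Over the 9 genes the median was -0.10 as deposited, the same as over all genes, and 0.03 centred, again the same.

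In this comparison Slc6a11 had a log2 fold change of -1.04 (SE 0.42, 95% CI -2.03 to -0.05, limma adjusted p = 0.412) and -0.92 when centred (95% CI -1.88 to 0.05). JA replicate 3 at 21.7 TPM overlapped with the PLM samples. Without it the value for Slc6a11 was -1.49 (limma adjusted p = 0.105), and without JA replicate 1 it was -0.62. Slc6a9 had all 3 PLM samples under the lowest JA sample, 138 TPM at most against 140.1 TPM, and a log2 fold change of -0.35 (95% CI -0.68 to -0.03, limma adjusted p = 0.412), or -0.23 when centred (95% CI -0.50 to 0.04). As deposited it was -0.23 without JA replicate 1 and -0.50 without JA replicate 3.

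Gad1 was above all JA samples in all 3 PLM samples, with a log2 fold change of 0.16 (95% CI -0.02 to 0.35, limma adjusted p = 0.481) as deposited and 0.29 (95% CI 0.12 to 0.46, limma adjusted p = 0.476) when centred. Thus 2 of the 9 genes, Gad1 and Slc6a9, did not overlap between PLM and JA, beside 17.7% of all genes. When centred there were 3 of 9 (Gad1, Gad2 and Slc6a5, all higher in PLM), beside 16.4%. Slc6a5 had a log2 fold change of 0.14 (95% CI -0.17 to 0.45), or 0.26 when centred (95% CI 0.02 to 0.51, limma adjusted p = 0.494). As deposited it was 0.04 without JA replicate 2 and 0.27 without JA replicate 1.

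The other genes had smaller differences, with log2 fold changes of -0.05 for Gad2 (95% CI -0.28 to 0.19), -0.12 for Slc32a1 (95% CI -0.41 to 0.17) and 0.03 for Slc12a5 (95% CI -0.30 to 0.36). It was -0.14 for Slc12a2 (95% CI -0.38 to 0.10) and -0.10 for Gphn (95% CI -0.31 to 0.12). Of these 5, Gad2, Slc32a1 and Gphn changed sign when centred, to 0.08, 0.0017 and 0.03. Leaving out 1 sample, the deposited values ranged from -0.11 to 0.0071 for Gad2, -0.20 to -0.0071 for Slc32a1, -0.06 to 0.19 for Slc12a5, -0.23 to -0.07 for Slc12a2 and -0.16 to -0.05 for Gphn. The upper end came without JA replicate 1, except for Slc12a2, where it came without PLM replicate 1. The 3 comparisons share their samples in pairs (JA, SNI and PLM each enter 2 of them), so their values are not independent of each other.

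A ratio of 2 genes within a sample does not move with the scaling of all genes, so 4 such ratios were compared between the groups (12 exact permutation tests, two-sided, adjusted over the 12). With 3 samples against 3 the smallest p the test can give is 0.1, so none could pass 0.05. Slc12a2 encodes a chloride importer of glia as well as neurons and Slc12a5 a neuronal chloride exporter, so their ratio in bulk cord spans cell types. The ratio of Slc12a2 to Slc12a5 transcripts averaged 0.586 (JA), 0.517 (SNI) and 0.518 (PLM). As log2 ratios these were -0.79 ± 0.26, -0.98 ± 0.34 and -0.95 ± 0.16 (SD, n = 3). PLM and SNI differed by 0.03 (exact permutation p = 1) and SNI and JA by -0.19 (exact permutation p = 0.4), within the spread of the samples. The latter was -0.08 without SNI replicate 1 and -0.39 without SNI replicate 2, and the former changed sign when single samples were left out (-0.09 to 0.22).

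The ratio of Gad1 to Gad2 averaged 2.18 (JA), 2.23 (SNI) and 2.53 (PLM). On the log2 scale PLM lay 0.22 above JA with no overlap (exact permutation p = 0.1, adjusted 0.3) and 0.18 above SNI with overlap (exact permutation p = 0.2). The ratio of the glial to the neuronal glycine transporter, Slc6a9 to Slc6a5, averaged 5.82 (JA), 4.87 (SNI) and 4.09 (PLM). PLM did not overlap with SNI (difference in log2 ratio -0.24, exact permutation p = 0.1, adjusted 0.3, and -0.11 without SNI replicate 2) or with JA (-0.50, exact permutation p = 0.1, adjusted 0.3). The 3 SNI samples overlapped with JA (-0.26, exact permutation p = 0.3, and -0.13 without JA replicate 2).

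The ratio of Slc6a11 to Slc32a1, transcripts of an astrocyte GABA transporter over a neuronal vesicle transporter, averaged 0.635 (JA), 0.839 (SNI) and 0.309 (PLM). Its log2 value was -0.27 ± 0.23 in SNI and -1.73 ± 0.38 in PLM, 2 groups that did not overlap (difference -1.47, exact permutation p = 0.1, adjusted 0.3). In JA it was -0.78 ± 0.77 and overlapped with both. Leaving out JA replicate 3 took its difference between SNI and JA from 0.51 to 0.09.

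**Figure D3:**
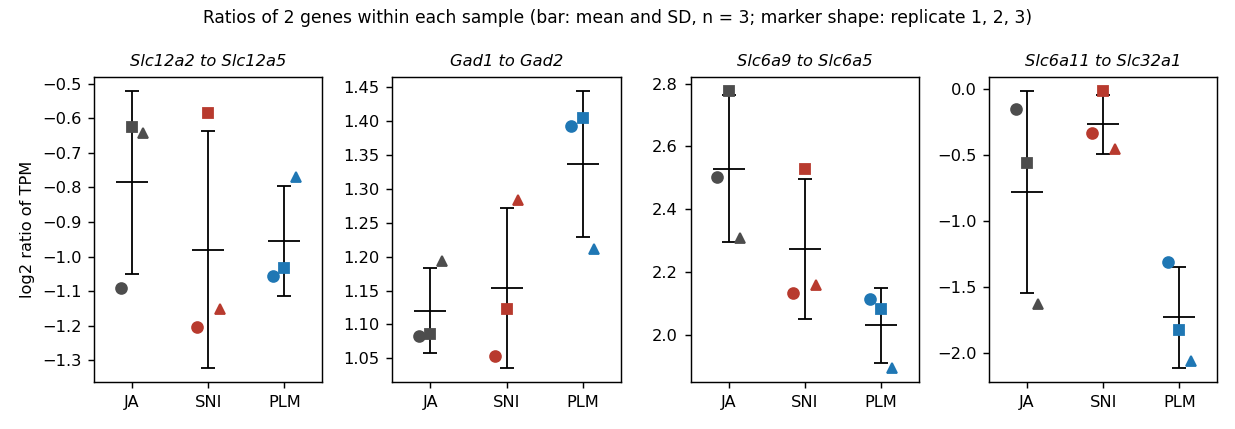
Log2 ratios of TPM within each sample (y axis, a separate scale in each panel) for 4 pairs of genes in JA, SNI and PLM, with 1 symbol per sample and bars for the mean and SD of 3 samples. PLM lies under SNI in every sample for Slc6a9 to Slc6a5 (means 2.03 and 2.27) and Slc6a11 to Slc32a1 (-1.73 and -0.27), and the groups overlap for Slc12a2 to Slc12a5.

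Markers of the cells that hold these genes were read beside them. Of 15 astrocyte markers, 13 were called lower in PLM versus SNI as deposited and 10 when centred, beside 13.6% and 0.685% of all genes. Their medians were -1.28 and -1.04, beside -0.21 and 0.04 over all genes. Their summed TPM was 4334 to 7046 in JA, 5953 to 7146 in SNI and 3162 to 3801 in PLM, and none of the 15 was at 0 in any sample. The lowest JA value belonged to replicate 3. Gfap, the astrocyte filament protein, had a log2 fold change of -1.28 (limma adjusted p = 0.00396), Gja1, a gap junction protein, -1.51 (limma adjusted p = 0.00477), the glutamate transporter Slc1a2 -1.95 (limma adjusted p = 0.00477) and the neurotensin receptor Ntsr2 -1.55 (limma adjusted p = 0.00477). Of 12 general neuron markers none was called by limma in PLM versus SNI and 2 were at an unadjusted p under 0.05 (37.09% of all genes were), with a median of -0.17 as deposited and 0.08 when centred. They summed to 2300 to 3960 TPM in JA, 3612 to 4552 in SNI and 3392 to 3790 in PLM. The most abundant were the neurofilament Nefl at -0.32 (95% CI -0.64 to 0.00) and the vesicle fusion protein Snap25 at -0.13 (95% CI -0.30 to 0.05). Centring leaves Nefl below 0 and turns the sign of Snap25.

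Set against the mean log2 level of the astrocyte markers, Slc6a11 lay at -0.73 ± 0.32 in the JA samples, -0.36 ± 0.09 in the SNI samples and -0.92 ± 0.16 in the PLM samples (SD, n = 3). Slc6a9 lay at 1.31 ± 0.29 in JA, 1.14 ± 0.07 in SNI and 1.81 ± 0.10 in PLM. Relative to the mean of these markers, Slc6a11 was thus lower and Slc6a9 higher in PLM than in SNI. Some of the markers are weakly expressed, and the added 1 TPM shrinks their fold changes. Slc1a2, a marker of the list, fell by more than Slc6a11. Against the general neuron markers Slc32a1 stood at -0.75 ± 0.08 in JA, -0.81 ± 0.11 in SNI and -1.03 ± 0.08 in PLM, while Gad1 stood at -1.60 ± 0.21, -1.70 ± 0.10 and -1.59 ± 0.04. Slc12a5 stood at 0.24 ± 0.09, 0.22 ± 0.15 and 0.11 ± 0.05 against the same markers. The part of the astrocyte markers' change in the values of Slc6a11 and Slc6a9 was not tested.

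**Figure D4:**
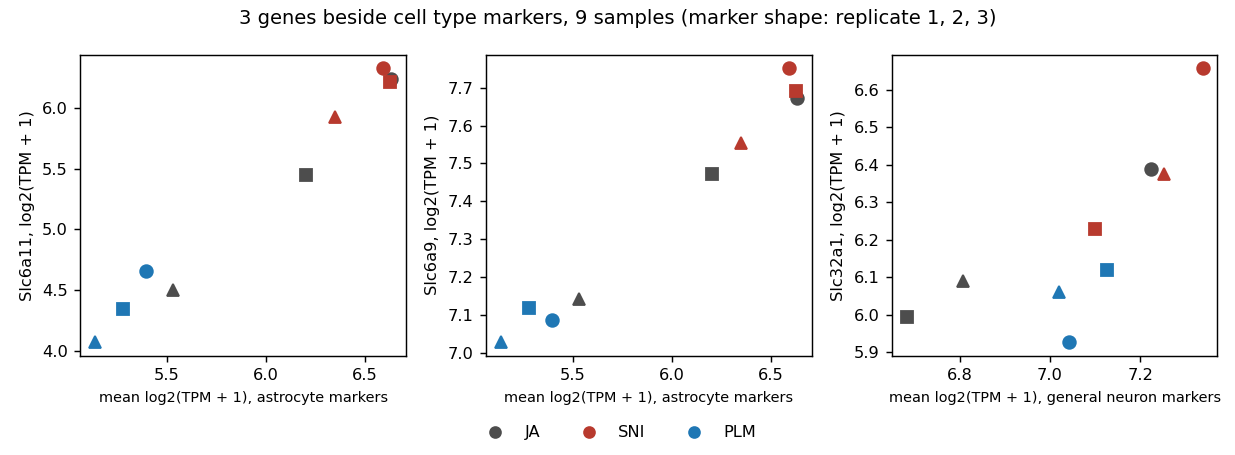
Log2(TPM + 1) of Slc6a11 and Slc6a9 against the mean of 15 astrocyte markers, and of Slc32a1 against the mean of 12 general neuron markers, with 1 symbol per sample (colour for the group, shape for the replicate). The PLM samples and JA replicate 3 (Slc6a11 at 15.8 to 24.2 TPM) lie at the low end of the astrocyte axis and the SNI samples and JA replicate 1 at the high end.

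The genes whose pattern over the 9 samples was most like that of Slc6a11 were sought among 8959 named genes with a mean of at least 5 TPM, after centring each sample and scaling each gene to mean 0 and SD 1. Among the nearest were Atp1b2 (root mean square difference 0.0883), a subunit of the sodium pump, Slc1a2 (0.107), Sparcl1 (0.115) and Fam151a (0.117). For Slc6a9 they were Plcd4 (0.142), C1qtnf5 (0.146), the bicarbonate cotransporter Slc4a4 (0.150), Mlc1 (0.163) and the glycogen phosphorylase Pygm (0.166). For Slc6a5 they were Snap91 (0.198), Adam22 (0.239), Gas6 (0.244), Ywhab (0.260) and the synaptotagmin Syt2 (0.278), which include proteins of the synapse and lie further away. Slc1a2 and Slc4a4 also stand in the astrocyte list.

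The promoters of the uptake genes that were called, Slc6a11 and Slc6a9, are shown with that of Slc32a1, the neuronal gene of the ratio above, which was not called. Each run is the RefSeq sequence from 250 bases before to 50 bases after the gene's start in rat build GRCr8, plus strand, and capitals mark the GC box letters GGGCGG on either strand.
Slc6a11, chr4:148853307-148853606: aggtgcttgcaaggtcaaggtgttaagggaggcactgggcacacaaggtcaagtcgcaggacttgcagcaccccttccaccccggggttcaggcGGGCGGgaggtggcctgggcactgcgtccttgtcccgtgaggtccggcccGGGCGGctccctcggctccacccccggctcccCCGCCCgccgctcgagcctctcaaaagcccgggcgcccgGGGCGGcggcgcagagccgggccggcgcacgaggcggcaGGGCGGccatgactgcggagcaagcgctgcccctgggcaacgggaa
Slc6a9, chr5:136659826-136660125: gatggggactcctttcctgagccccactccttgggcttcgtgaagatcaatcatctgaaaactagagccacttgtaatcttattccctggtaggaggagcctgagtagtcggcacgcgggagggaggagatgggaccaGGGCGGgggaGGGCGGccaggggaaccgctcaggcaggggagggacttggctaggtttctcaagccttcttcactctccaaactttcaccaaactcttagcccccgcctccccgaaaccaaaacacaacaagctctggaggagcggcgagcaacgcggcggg
Slc32a1, chr3:167686995-167687294: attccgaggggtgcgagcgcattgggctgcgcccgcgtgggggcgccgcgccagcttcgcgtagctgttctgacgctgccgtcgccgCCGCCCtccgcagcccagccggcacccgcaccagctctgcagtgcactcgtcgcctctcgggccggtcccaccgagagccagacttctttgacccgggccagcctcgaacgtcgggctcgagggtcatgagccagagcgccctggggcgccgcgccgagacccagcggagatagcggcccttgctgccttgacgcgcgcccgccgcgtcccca
All 9 genes matched a RefSeq promoter. The letters GGGCGG, read on both strands, occurred in 33.06% of 33469 promoters of this length. They occurred 5 times for Slc6a11, 3 times for Slc12a2, 2 times for Slc6a9 and 1 time each for Gad1, Slc32a1, Slc12a5 and Gphn, and not in these windows of Gad2 and Slc6a5. The TATA box letters TATAAA, in 14.22% of promoters, occurred 1 time for Gad1 and in no other of the 9. The letters TTGGCA (13.98%), TGGGAA (25.68%), TTCNNNGAA (8.87%) and CACGTG (6.42%) occurred in none of the 9 windows. GC content was 73.3% for Slc6a11, 59.0% for Slc6a9 and 73.7% for Slc32a1, and a match of letters is a description of the sequence only.

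The neighbouring steps of the pathway were read in PLM versus SNI from lists of further genes. Of 7 tested genes for other GABA and glycine uptake and GABA breakdown, 5 were called lower and none higher as deposited, and 2 when centred (medians -0.69 and -0.44, beside -0.21 and 0.04 over all genes). Beside these and the following lists stand the 13.6% of all genes called lower as deposited and the 0.685% when centred. Abat, the transaminase that breaks down GABA, was at 62.9 to 76.9 TPM in SNI and 32.6 to 35.1 TPM in PLM. Its log2 fold change was -1.01 (SE 0.09, limma adjusted p = 0.00497), or -0.76 when centred (limma adjusted p = 0.0292). Aldh5a1, the next enzyme of GABA breakdown, fell by 0.69 (limma adjusted p = 0.0116) and the amino acid exchanger Slc7a10 by 1.73 (limma adjusted p = 0.0166), neither past the test when centred.

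Of 9 genes that supply glutamine and glutamate for GABA, 4 were called lower as deposited and 1 when centred (medians -0.28 and -0.03). Glud1, glutamate dehydrogenase, was at -0.93 (limma adjusted p = 0.00526) and -0.69 when centred (limma adjusted p = 0.0494). Glul, the astrocyte enzyme that makes glutamine, was at -0.59 (limma adjusted p = 0.00725), the glutamine transporters Slc38a3 and Slc38a1 at -0.57 and -0.48 (limma adjusted p = 0.00802 and 0.0283). Of 6 genes of glycine synthesis and cleavage, 2 were called lower as deposited, the glycine cleavage proteins Gcsh at -0.51 (limma adjusted p = 0.00959) and Amt at -0.72 (limma adjusted p = 0.0355), and none when centred (medians -0.42 and -0.17).

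Of 15 other chloride cotransporters, channels and kinases, 4 were called lower as deposited and none when centred (medians -0.33 and -0.09). They were Slc12a9 at -0.60 (limma adjusted p = 0.0150), the potassium chloride cotransporter Slc12a4 at -0.60 (limma adjusted p = 0.0154), Slc26a11 at -0.38 (limma adjusted p = 0.0349) and the channel Best1 at -0.26 (limma adjusted p = 0.0418). Best1 was listed at 973 to 1481 TPM, and its neighbour in the RefSeq annotation is the ferritin gene Fth1. The reads of Best1 and Fth1 may not have been told apart, which was not tested. Of 13 organisers of inhibitory synapses, 2 were called lower as deposited, a share close to that of all genes, and none when centred (medians -0.12 and 0.13): Lhfpl4, a GABA-A receptor partner, at -0.66 (limma adjusted p = 0.0274) and Clptm1 at -0.40 (limma adjusted p = 0.0277).

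Of 14 tested subunits of GABA-A, GABA-B and glycine receptors, 6 were called lower as deposited and none when centred, where 6 were at an unadjusted p under 0.05, as were 16.94% of all genes (medians -0.48 and -0.23). The GABA-A subunits Gabra2, Gabrg1 and Gabrb1 were at -0.74, -0.87 and -0.73 (limma adjusted p = 0.0118, 0.0254 and 0.0291) and the GABA-B subunit Gabbr1 at -0.44 (limma adjusted p = 0.0147). Of 11 markers of inhibitory spinal neurons only the dorsal horn transcription factor Rorb was called lower, at -0.76 (limma adjusted p = 0.0327), and none when centred (medians -0.03 and 0.21). Rorb was weakly expressed, at 1.96 to 2 TPM in SNI and 0.52 to 0.93 TPM in PLM. It reached the filter of 1 TPM on average only through its SNI samples. Of 9 markers of excitatory and cholinergic neurons only Slc5a7, the choline transporter, was called lower, at -0.57 (limma adjusted p = 0.0303), and none when centred (medians -0.16 and 0.08).

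**Figure D5:**
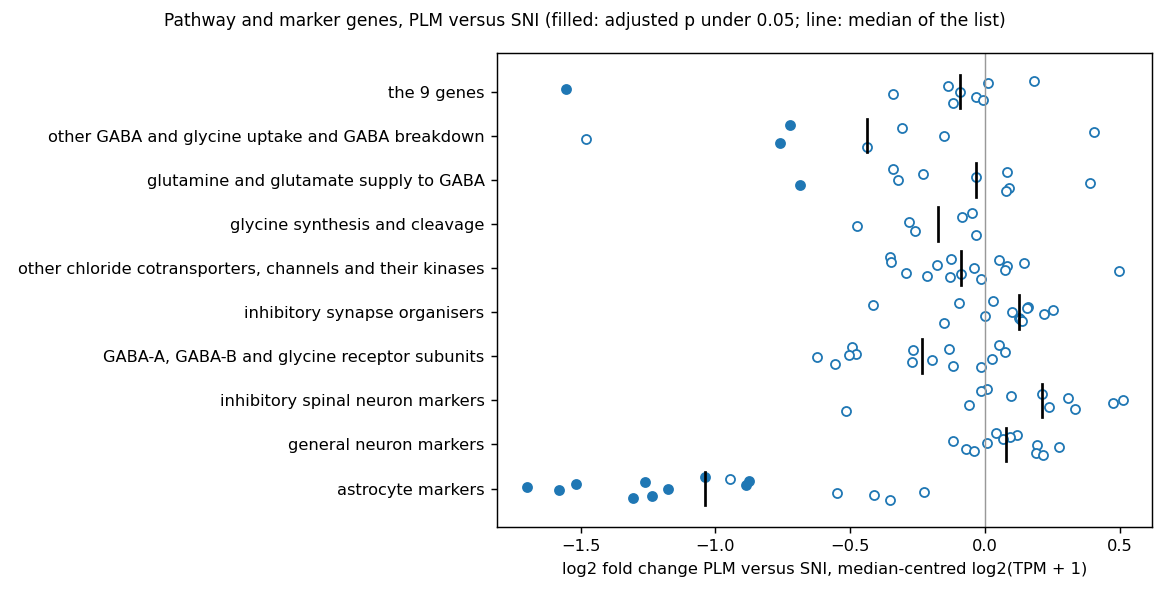
Median-centred log2 fold changes in PLM versus SNI (x axis, log2(TPM + 1)), 1 point per gene, for the 9 genes, the pathway lists and markers of 3 cell classes, filled where the limma adjusted p was under 0.05, with a vertical line at each list's median. Filled points include Slc6a11, Abat, Glud1 and 10 of 15 astrocyte markers, and as deposited each value lies lower by the same shift.

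In SNI versus JA and in PLM versus JA no gene of the pathway and marker lists was called by limma, on either scale. At an unadjusted p under 0.05 there were 13 of 158 tested in SNI versus JA (16 when centred) and 30 of 156 in PLM versus JA (20 when centred). Over all genes the shares at that p were 7.1% (4.83% when centred) and 11.8% (9.98% when centred). The receptor subunits had a median of 0.35 in SNI versus JA and -0.16 in PLM versus JA, beside 0.12 and -0.10 over all genes. When centred these were 0.23 and -0.04, beside -0.01 and 0.03 over all genes. As deposited, the subunit medians were 0.53 and 0.0083 without JA replicate 1, and 0.30 and -0.30 without JA replicate 3. The other uptake and breakdown genes had medians of 0.33 and -0.48, or 0.50 and -0.25 without JA replicate 1 and 0.19 and -0.68 without JA replicate 3, and the first was 0.18 without SNI replicate 1. Their centred medians were 0.21 and -0.36. Abat had log2 fold changes of 0.53 (95% CI -0.14 to 1.19) and -0.48 (95% CI -1.13 to 0.17) in the same order. Its lowest JA value, 29.8 TPM, was in replicate 3, the sample in which Slc6a11 and the astrocyte markers were also lowest in JA. Without that sample the values for Abat were 0.20 and -0.81, and without JA replicate 1 they were 0.78 and -0.23. The medians of the astrocyte markers were 0.42 in SNI versus JA and -0.90 in PLM versus JA, against 0.15 and -1.21 without JA replicate 3 and 0.63 and -0.58 without JA replicate 1.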

How the data were processed

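Total RNA of 9 samples was sequenced, and the authors deposited 1 table of TPM values for 34890 loci, rounded to 2 decimals; TPM as the unit was read from the values, which sum to 1000000 in each sample. The submitters' processing notes list CASAVA, fastp version 0.19.5 and StringTie, and the study's methods state HISAT2 version 2.0 and StringTie version 1.3.3b. The notes list build GRCh38.p13, a human build, although the identifiers are rat Ensembl genes; the rat build is not given in the sources used here. The study called genes with DESeq2, which needs counts and was not used here. Read depth is unknown from TPM.

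Groups were compared in pairs by limma (version 3.58.1, R version 4.3.3) on log2(TPM + 1) with a variance trend, without covariates, using loci that averaged 1 TPM or more, with Benjamini-Hochberg adjustment over all of them. The added 1 TPM shrinks the fold changes of weakly expressed genes. Medians for centring were taken over the genes tested. Ratios were compared by exact permutation tests. All 9 genes were named. From each other list, the called genes of lowest p-value were named, up to 4, and where none passed, the 2 most abundant; for some lists the text gives counts and medians only. For Slc6a11, Slc6a5 and Slc6a9 the 5 nearest genes by pattern were sought. The values of 2 genes that these rules name are not reported here. The genes, lists and tests were chosen with earlier results of these data known. Same-numbered samples did not deviate together (Pearson's r across genes of -0.05 to 0.12 over 9 pairs of samples), so the replicate number was not used as a block. The p-values measure the spread between the samples labelled as biological replicates. Alternatives were other scalings (median-centred, without the 13 mitochondrial protein genes, quantile), a pseudocount of 0.1, other filters, 1 fit of all 9 samples, the replicate block, leaving out each sample, and the study's threshold; centring combined with the block or with leaving out samples, and leaving out samples for Abat and the list medians, were alternatives chosen after seeing the data.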

Additional observations from a re-analysis of the deposited data

How the results depend on the processing

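In PLM versus SNI 2 of the 9 genes were called. The count was 1 with median-centred values, with quantile normalization, at the study's threshold and with the replicate block (the replicate numbers did not pair the samples), and 0 with median-centred values and the replicate block together. Leaving out 1 sample gave 2 to 5 as deposited, with 5 without SNI replicate 2, and 0 to 1 with median-centred values, with 1 without PLM replicate 1. At the study's threshold PLM versus JA gave 1. Every other alternative was within 1.5 times the main count. Slc6a9 was lost with quantile normalization (limma adjusted p = 0.0635), and Gphn was called with at least 1 TPM in every sample (limma adjusted p = 0.0471). Of 392 alternative fold changes 355 kept their direction and side of the threshold, 16 lost a call, 4 gained one and 17 changed sign. In PLM versus SNI Gad1 turned to 0.18 (median-centred), 0.0816 (without mitochondrial genes), 0.14 (quantile) and, leaving out 1 sample, -0.1338 to 0.0416, and Gad2 to 0.0117 (median-centred) and 0.0044 (quantile). In SNI versus JA Slc12a2 turned to -0.0038 (median-centred) and -0.0068 (quantile). In PLM versus JA Gad2 turned to 0.078 (median-centred), 0.0086 (without mitochondrial genes), 0.0619 (quantile) and, leaving out 1 sample, -0.1088 to 0.0071, Slc12a5 ranged from -0.0644 to 0.1891 when leaving out 1 sample, and Slc32a1 and Gphn turned to 0.0017 and 0.0263 (median-centred). Leaving out 1 sample, the log2 ratio of Slc12a2 to Slc12a5 in PLM versus SNI ranged from -0.0858 to 0.2229 and that of Gad1 to Gad2 in SNI versus JA from -0.0319 to 0.0831. The cause of these changes was not tested. Limits: 3 samples per group, unknown depth, and a choice of scaling that moved each of the 9 genes by a similar amount.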

Other observations

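Among the inhibitory spinal neuron markers, Pvalb, a calcium buffer of some interneurons and of proprioceptive fibres, measured 169, 174 and 176 TPM in JA, 207, 162 and 232 TPM in SNI and 246, 246 and 224 TPM in PLM. All PLM samples lay above all JA samples, with a log2 fold change of 0.46 (95% CI 0.29 to 0.63) that did not pass the test over all genes (limma adjusted p = 0.226). Npy, a neuropeptide of dorsal horn inhibitory neurons, differed by 0.11 between PLM and JA (95% CI -0.16 to 0.37). These are the most abundant genes of the list. Of its 10 genes tested in PLM versus JA, 5 had log2 fold changes below 0, and the median was -0.03 as deposited and 0.10 when centred.

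The other marker lists gave 1 call lower in PLM versus SNI as deposited, the microglial gene Tmem119 at -0.43 (limma adjusted p = 0.0378), and none lower when centred. The medians, as deposited and centred, were 0.03 and 0.28 for 12 microglia markers, -0.11 and 0.14 for 12 oligodendrocyte markers, -0.15 and 0.10 for 5 ependymal markers, 0.11 and 0.35 for 7 endothelial markers, -0.65 and -0.40 for 7 Schwann cell markers and 0.76 and 1.00 for 5 blood cell markers. Of these lists, 1 endothelial marker was called higher when centred. The Schwann cell list varied widely within groups. Its mean log2 level was 4.56, 7.03 and 5.69 in SNI replicates 1 to 3 and 3.83, 5.10 and 6.70 in PLM replicates 1 to 3.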
